A study of Mus musculus with 24 samples.

Results

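The 7 genes Gadd45g, Zmat3, Trp53inp1, Btg2, Bbc3, Ei24 and Epha2 were followed as p53 targets and growth arrest genes. They were taken by symbol from a deposited table of 35974 gene symbols, in which all 7 were present. The table holds 24 RNA-seq libraries of liver from C3H/HeJ mice, 4 in each of 6 groups. The groups combine a genotype, wild type (WT) or transgenic (labelled TGA), with a suffix of 2, 4 or 8 in the sample title, called class 2, class 4 and class 8 here. The labels name no transgene, promoter, treatment, age or sorting gate. They do not define the suffix either, and a reading as the DNA content of hepatocytes rests only on the title of the series. A number from 1 to 4 follows the genotype in each title, and whether libraries with the same genotype and number come from 1 animal is not stated. The p-values below therefore measure the spread between libraries, which may be technical.

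p53 is a transcription factor that is stabilised after DNA damage and other stress and that switches on genes for cell cycle arrest, DNA repair and cell death. In liver the pathway is known for restraining the growth of hepatocytes with abnormal chromosome content. Gadd45g encodes a small stress-inducible protein of the Gadd45 family that binds cell cycle and stress kinases, and Btg2 an antiproliferative partner of the CCR4-NOT mRNA deadenylase. Zmat3 encodes a zinc finger RNA-binding protein and Trp53inp1 a p53-induced protein of stress-linked cell death and autophagy. Bbc3 encodes the BH3-only death protein Puma, Ei24 an endoplasmic reticulum membrane protein linked to autophagy, and Epha2 a receptor tyrosine kinase for ephrin-A ligands.

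The 250 bases before the annotated start were looked up for the 7 genes, because a p53 target is often recognised by its binding motif. Promoter sequences of Gadd45g, Btg2, Bbc3, Ei24 and Epha2 were found in RefSeq (build GRCm38.p6, not the mm9 build named for the deposited values). Those of Gadd45g, Btg2, Ei24 and Epha2 are shown 5′ to 3′ on the strand of the gene, because each held a match to 1 of the 3 motifs searched, with the match in capitals.
Gadd45g, chr13:51846425-51846674, plus strand: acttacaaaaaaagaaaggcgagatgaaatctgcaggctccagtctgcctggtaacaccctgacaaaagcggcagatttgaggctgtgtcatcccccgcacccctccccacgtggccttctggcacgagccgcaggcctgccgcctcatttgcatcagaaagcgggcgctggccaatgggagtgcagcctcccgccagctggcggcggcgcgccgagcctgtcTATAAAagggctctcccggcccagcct
Btg2, chr1:134079156-134079405, minus strand: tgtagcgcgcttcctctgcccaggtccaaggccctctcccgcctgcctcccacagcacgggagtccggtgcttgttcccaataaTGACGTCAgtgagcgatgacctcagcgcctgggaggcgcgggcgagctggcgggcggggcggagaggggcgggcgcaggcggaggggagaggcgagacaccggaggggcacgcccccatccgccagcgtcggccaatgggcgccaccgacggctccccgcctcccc
Ei24, chr9:36797335-36797584, minus strand: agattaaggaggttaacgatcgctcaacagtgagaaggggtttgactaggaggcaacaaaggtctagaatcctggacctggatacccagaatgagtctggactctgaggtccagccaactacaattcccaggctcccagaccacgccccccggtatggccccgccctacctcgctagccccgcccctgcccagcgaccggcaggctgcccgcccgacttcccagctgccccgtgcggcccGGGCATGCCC
Epha2, chr4:141300971-141301220, plus strand: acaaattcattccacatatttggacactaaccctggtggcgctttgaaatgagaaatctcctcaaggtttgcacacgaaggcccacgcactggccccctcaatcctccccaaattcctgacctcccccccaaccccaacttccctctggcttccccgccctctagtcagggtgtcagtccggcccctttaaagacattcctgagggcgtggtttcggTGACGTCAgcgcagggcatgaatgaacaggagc

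Ei24 was the only one of the 5 genes whose window held the p53 half-site consensus, a motif of 10 bases that reads the same on both strands, and its match ended at the base before the start. That motif occurred in 7.13% of 32851 windows of the same length. The core promoter motif TATAAA, searched on both strands, was found 27 bases before the start of Gadd45g and in 12.4% of all windows. The cAMP response motif TGACGTCA, which is its own reverse complement, was found 166 bases before the start of Btg2 and 33 bases before that of Epha2, against 1.55% of all windows. Both TATAAA and TGACGTCA were chosen after the sequences were seen. A match is a description of the letters, and no binding was measured here.

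Values are log2(normalised count + 1), and the number of reads behind them cannot be recovered, so the depth is unknown. Libraries differed widely in how many genes had a value above 0, from 1624 to 15147. Of the 168 values of the 7 genes, 86 were above 0 and 82 were listed at 0. A value of 0 is no proof of silence: the housekeeping genes Actb and Gapdh were listed at 0 in 14 and 19 of 24 libraries. In the 4 libraries with over 7000 genes above 0 (WT number 1 classes 2 and 4, WT number 4 class 2 and TGA number 3 class 8), 24 of 28 values of the 7 genes were above 0, against 62 of 140 in the other 20. Hepatocyte markers were present: all 14 in the table passed the filter on low values, against 3 of 10 endothelial, 1 of 10 stellate and fibroblast, 1 of 6 cholangiocyte and 0 of 8 macrophage, 0 of 9 lymphocyte, 0 of 6 neutrophil and 0 of 6 erythroid markers. Not every library held most hepatocyte markers: the lowest number above 0 was 3 of 14 in WT class 4 and in WT class 8, against 13 in TGA class 2. In bulk RNA, fewer cells of a type and less RNA per cell cannot be told apart.

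**Figure D1:**
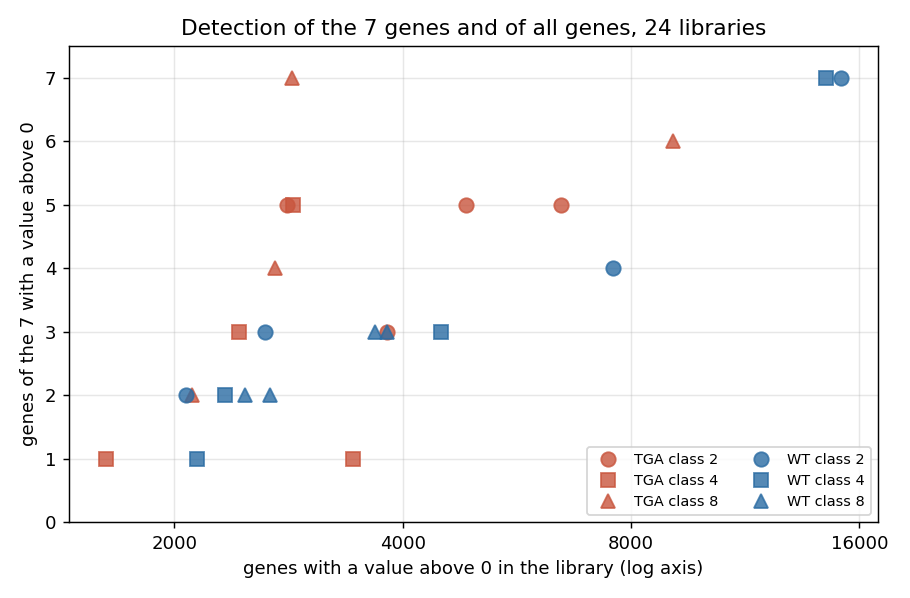
Number of the 7 genes with a value above 0 (vertical axis) against the number of all genes above 0 (horizontal log axis), 1 point per library, coloured by genotype and shaped by class. WT number 1 classes 2 and 4 held all 7 genes and had the most genes above 0, but TGA number 2 class 8 also held all 7, with 2860 genes above 0.

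The share of the 7 genes' values above 0 also differed by group. It was 57.1%, 46.4% and 35.7% in WT classes 2, 4 and 8, close to the 54.9%, 48.8% and 38.3% over all 4875 genes tested. In the TGA classes it was 64.3%, 35.7% and 67.9%, against 55.1%, 32.7% and 45.4% over all genes tested. All 7 genes passed the filter on low values (a deposited value of at least 1, on its natural log scale, in at least 4 libraries), and these filter counts support no difference, since a gene can pass through the group where it is high.

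**Figure D2:**
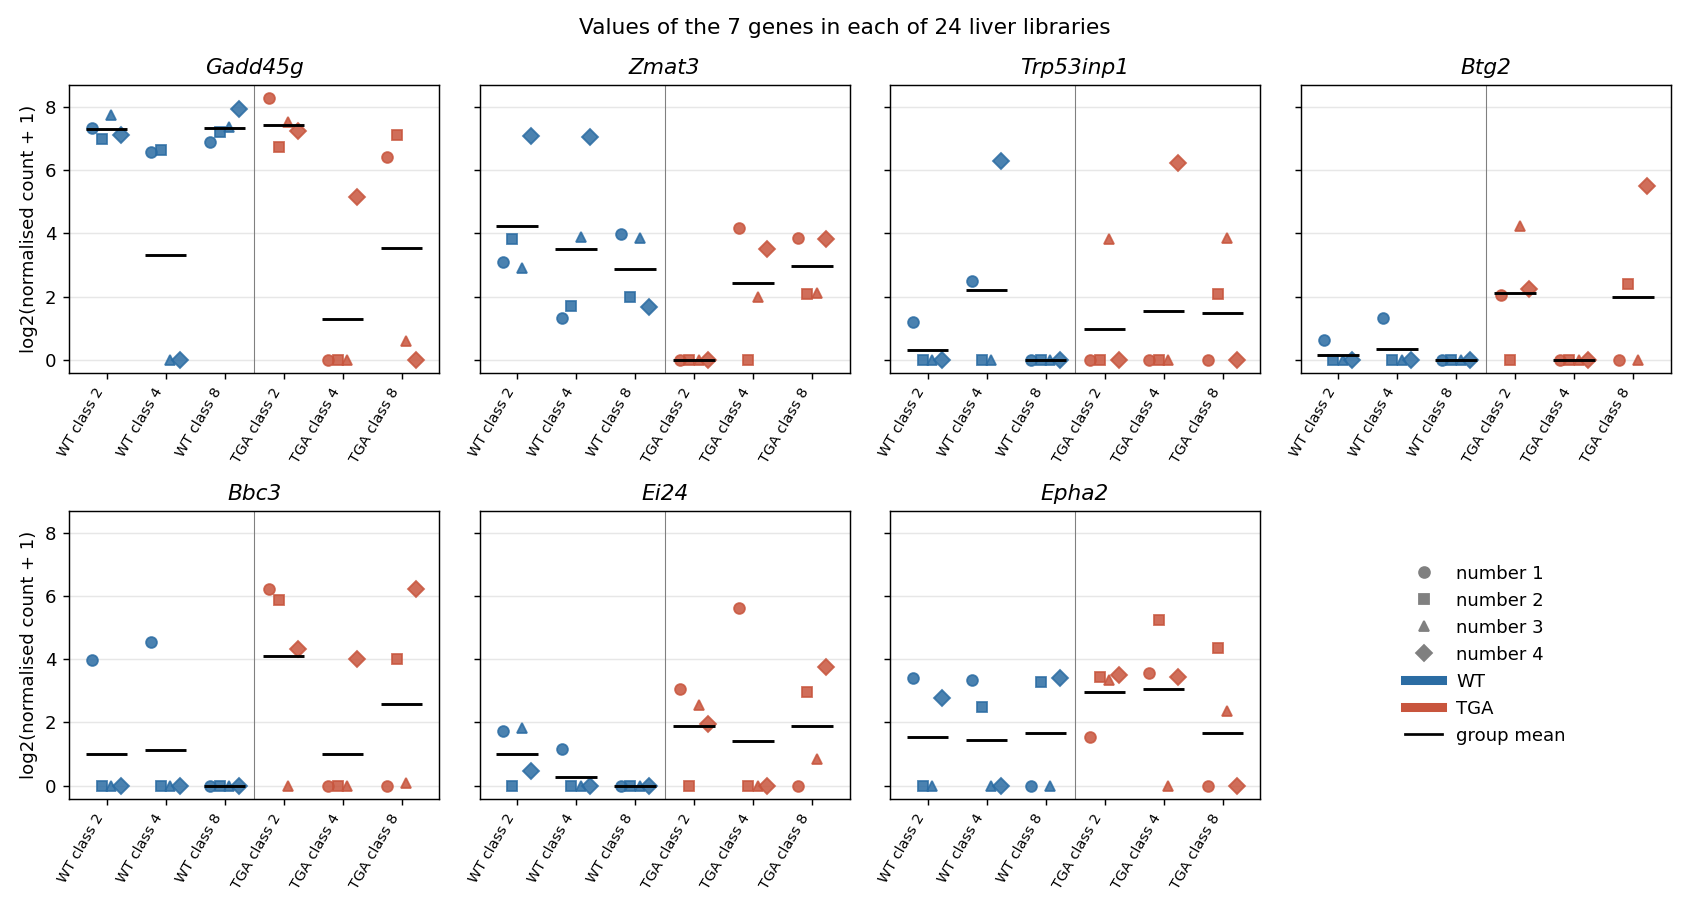
Value of each of the 7 genes, as log2(normalised count + 1), in each of 24 libraries; marker shapes give the number in the title, colours the genotype, and black bars the mean of each group of 4. Gadd45g was above 6.7 in the 8 class 2 libraries and at 0 in 5 of 8 class 4 libraries, and Zmat3 was at 0 in the 4 libraries of TGA class 2.

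Gadd45g fell from class 2 to class 4 and was the only one of the 7 genes to pass the test in any of the 16 comparisons. In WT class 2 the libraries numbered 1 to 4 held log2 values of 7.34, 6.98, 7.75 and 7.12, and in TGA class 2 they held 8.29, 6.73, 7.54 and 7.23. In WT class 4 the values were 6.58, 6.65, 0 and 0, and in TGA class 4 they were 0, 0, 0 and 5.15. All 8 class 2 libraries were thus above all 8 class 4 libraries, and the highest class 4 value lay just under the lowest class 2 value. In class 8 the WT libraries were again high, at 6.91, 7.21, 7.37 and 7.93, while the TGA libraries held 6.44, 7.14, 0.59 and 0. Each WT class 8 value fell within the range of the class 2 libraries, and the TGA class 8 values were split between 2 high and 2 low libraries.

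Ordered by group mean, Gadd45g was 7.45 ± 0.65 in TGA class 2, 7.36 ± 0.43 in WT class 8 and 7.30 ± 0.34 in WT class 2 (SD, n = 4 each), which did not differ beyond their spread. The next groups were TGA class 8 at 3.54 ± 3.77, WT class 4 at 3.31 ± 3.82 and TGA class 4 at 1.29 ± 2.57 (SD, n = 4 each), whose spreads overlap because each holds libraries at or near 0. Over both genotypes Gadd45g fell by 5.08 on the log2 scale from class 2 to class 4 (SE 1.17, limma adjusted p = 0.039, all class 4 libraries lower in both genotypes). In the 5 class 4 libraries at 0, the most frequent value above 0 was 3.90 and 3.82 in WT numbers 3 and 4. It was 3.57, 4.44 and 1.75 in TGA numbers 1, 2 and 3, so the size of the fall depends on how the zeros are read. Between class 4 and class 2 over both genotypes 15 of 4875 genes were called, all of them lower, which is 0.308% of genes tested. By exact permutation of the class labels within genotype, two-sided, the p of Gadd45g was 0.000408, the smallest that 4900 assignments can give, which 3 of 4875 genes reached. Adjusted over all genes tested it was 0.318, and no gene passed by that test (0 of 4875, with 539, or 11.1%, at an unadjusted p under 0.05).

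The call for Gadd45g was lost when the 3 libraries of WT number 2, 3 or 4, or of TGA number 1, 2 or 3, were left out (adjusted p of 0.0837, 0.202, 0.116, 0.0958, 0.115 and 0.148). The difference itself was then -5.68, -4.45, -4.55, -4.72, -4.98 and -4.85. On dropping libraries with under 2500 genes above 0 the difference was -2.83 (adjusted p = 0.513). That last alternative, chosen after the data were seen, leaves out 4 of the 5 class 4 libraries in which Gadd45g was listed at 0 and none of the 3 in which it was above 0. With the number of genes above 0 as a covariate the difference was -4.83 (adjusted p = 0.11). The summed level of the 14 hepatocyte markers also differed between classes, with medians of 47.0 and 114 in WT and TGA class 2 against 45.1 and 66.1 in class 4, and its part in the result was not tested.

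Where Gadd45g was above 0 it ranked between the 39.42 and 99.14 percentile of the genes above 0 in its library, with a median of 96.46, on values that are not scaled by transcript length.

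Within each genotype the class 4 to class 2 difference of Gadd45g was -3.99 in WT (SE 1.66, limma adjusted p = 0.999) and -6.16 in TGA (SE 1.66, adjusted p = 0.0561). In WT 0 genes passed (226 at an unadjusted p under 0.05), and in TGA 41 passed, all lower, or 0.841% of genes tested. The difference between the genotypes, -2.17 (SE 2.34), did not pass (adjusted p = 0.952), and for that interaction 0 of 4875 genes passed with limma (309 unadjusted). In TGA the call was gained without WT number 1 (adjusted p = 0.0453), with the filter raised to 8 libraries (adjusted p = 0.0394) and when the libraries holding over 7000 genes were dropped (adjusted p = 0.0373). The difference stayed at -6.16 in each of these. Only 4 of 17 alternatives gave a call in TGA, with limma adjusted p from 0.0373 to 0.395. Without TGA number 1, 2, 3 or 4 the limma adjusted p was 0.167, 0.198, 0.22 and 0.117.

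For class 8, Gadd45g had values 1.92 lower than in class 2 on the log2 scale (difference -1.92, SE 1.17, adjusted p = 0.766) and 3.15 higher than in class 4 (SE 1.17, adjusted p = 0.718). Neither passed. In class 8 the difference of TGA from WT was -3.81 (SE 1.66, adjusted p = 0.455), which did not pass, and the groups overlapped, with TGA number 2 inside the WT range. There 1 of 4875 genes passed (0.0205%, limma). Against class 2, class 8 differed by 0.06 in WT (SE 1.66, adjusted p = 1) and by -3.91 in TGA (SE 1.66, adjusted p = 0.594). The interaction of -3.96 (SE 2.34) did not pass (adjusted p = 0.999), with 0 of 4875 genes passing and 198 at an unadjusted p under 0.05.

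Btg2 was listed at 0 in 17 of 24 libraries. In WT it was above 0 only in number 1, at 0.61 in class 2 and 1.33 in class 4, out of 12 libraries. In TGA class 2 the values were 2.04, 0, 4.22 and 2.25, in class 4 all 4 were 0, and in class 8 they were 0, 2.41, 0 and 5.50. Btg2 was thus above 0 in 5 of 12 TGA and 2 of 12 WT libraries, and in both genotypes the class 8 and class 4 groups held at most 2 libraries above 0. The order of group means was TGA class 2 (2.13 ± 1.73), TGA class 8 (1.98 ± 2.61), WT class 4 (0.33 ± 0.66), WT class 2 (0.15 ± 0.31), and WT class 8 with TGA class 4, both at 0 throughout (SD, n = 4 each). No neighbours in this order differed beyond their spread. From class 2 to class 4 Btg2 differed by -0.97 (SE 0.70, limma adjusted p = 0.539) over both genotypes and by -2.13 in TGA (SE 0.99, adjusted p = 0.299).

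Zmat3 had a pattern of its own, with values in all 12 WT libraries and none in TGA class 2. In WT class 2 it stood at 3.10, 3.81, 2.91 and 7.10, in WT class 4 at 1.32, 1.72, 3.90 and 7.05, and in WT class 8 at 4.0, 1.97, 3.85 and 1.68. In TGA class 2 it was 0 in all 4 libraries, in TGA class 4 it was 4.18, 0, 1.98 and 3.52, and in TGA class 8 it was 3.86, 2.08, 2.10 and 3.82. WT number 4 held by far the highest values, in classes 2 and 4, and the class 8 groups of both genotypes overlapped. By group mean the order was WT class 2 (4.23 ± 1.95), WT class 4 (3.50 ± 2.63), TGA class 8 (2.96 ± 1.01), WT class 8 (2.88 ± 1.22), TGA class 4 (2.42 ± 1.86) and TGA class 2 at 0 (SD, n = 4 each). Among the first 5 of these groups no neighbours differed beyond their spread.

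In class 2 the genotypes did not overlap for Zmat3. The difference of TGA from WT was -4.23 (SE 1.44) and did not pass (limma adjusted p = 0.346, range 0.116 to 0.878 over 17 alternatives, lower in all 4 TGA libraries). By exact permutation its two-sided p was 0.0286, the smallest that 4 libraries against 4 allow, and 0.714 after adjustment over all genes tested. A total of 105 genes, or 2.15% of those tested, were lower in TGA class 2 without overlap, and 51 genes, or 1.05%, were at 0 in all 4 TGA and above 0 in all 4 WT libraries. With limma 5 genes passed in class 2, or 0.103%. The number of genes above 0 was 2071 to 15147 in the WT class 2 libraries and 2816 to 6468 in those of TGA class 2. The most frequent value above 0 in TGA class 2 ran from 0.66 to 2.04. The part of detection in the zeros of Zmat3 was not tested. Several WT values were themselves at the low end: in WT class 2, Zmat3 in numbers 2 and 3 equalled the most frequent value above 0 of its library (3.81 and 2.91).

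Zmat3 in TGA differed from class 2 by 2.96 in class 8 (SE 1.44, limma adjusted p = 0.681) and by 2.42 in class 4 (SE 1.44, adjusted p = 0.434). In WT the corresponding differences were -1.35 (adjusted p = 0.995) and -0.73 (adjusted p = 0.999). All 4 TGA class 8 libraries were above all 4 TGA class 2 libraries, a separation with an exact permutation p of 0.0286 (as for 143 genes, 2.93%) and an adjusted one of 0.974. In TGA class 8, the values in numbers 1 and 2 (3.86 and 2.08) equalled the most frequent value above 0 of their library. The interaction for class 8 against class 2, 4.32 (SE 2.04), did not pass (limma adjusted p = 0.999).

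Trp53inp1 was above 0 in 7 of 24 libraries, in no WT class 8 library and in at most 2 libraries of any group. In WT it reached 1.19 in class 2 (number 1), and 2.50 (number 1) and 6.29 (number 4) in class 4. In TGA it reached 3.84 in class 2 (number 3), 6.22 in class 4 (number 4), and 2.08 (number 2) and 3.85 (number 3) in class 8. Each group mean thus rested on at most 2 libraries above 0, and the means ran from 0 in WT class 8 and 0.30 ± 0.59 in WT class 2 to 2.20 ± 2.97 in WT class 4 (SD, n = 4 each), with no neighbours apart beyond their spread. Over both genotypes its difference between class 4 and class 2 was 1.25 (SE 0.96, limma adjusted p = 0.566).

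The cell death members Bbc3 and Ei24 were above 0 in more TGA than WT libraries, and the share of tested genes with such counts was not determined. Over all classes neither passed between the genotypes (limma adjusted p = 0.542 and 0.59). Bbc3 was above 0 in WT only in number 1, at 3.98 in class 2 and 4.55 in class 4. In TGA class 2 it held 6.23, 5.88, 0 and 4.32, in class 4 it held 0, 0, 0 and 4.0, and in class 8 it held 0, 4.0, 0.09 and 6.24. Bbc3 was therefore above 0 in 7 of 12 TGA and 2 of 12 WT libraries, and both WT values above 0 came from the 2 libraries with the most genes above 0. Its group means ran from 0 in WT class 8 through 0.99 ± 1.99 in WT class 2, 1.0 ± 2.0 in TGA class 4 and 1.14 ± 2.27 in WT class 4 to 2.58 ± 3.07 in TGA class 8 and 4.11 ± 2.86 in TGA class 2 (SD, n = 4 each), with no neighbours apart beyond their spread. From class 2 to class 4 in TGA the difference was -3.11 (SE 1.51, limma adjusted p = 0.327), and over both genotypes -1.48 (SE 1.07, adjusted p = 0.54).

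Ei24 was above 0 in 7 of 12 TGA and 4 of 12 WT libraries. In WT class 2 it held 1.72, 0, 1.82 and 0.46, in WT class 4 it held 1.14, 0, 0 and 0, and in WT class 8 all 4 were 0. In TGA class 2 the values were 3.06, 0, 2.55 and 1.94, in class 4 they were 5.64, 0, 0 and 0, and in class 8 they were 0, 2.96, 0.85 and 3.74. In TGA classes 2 and 8 a majority of libraries held a value, and in class 4 of either genotype number 1 alone did. The group means went from 0 in WT class 8, 0.29 ± 0.57 in WT class 4 and 1.0 ± 0.91 in WT class 2 to 1.41 ± 2.82, 1.89 ± 1.34 and 1.89 ± 1.75 in TGA classes 4, 2 and 8 (SD, n = 4 each), and no neighbours differed beyond their spread. Its difference between class 8 and class 2 was -0.50 (SE 0.85, limma adjusted p = 0.933).

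Epha2, the cell surface member, was above 0 in 9 of 12 TGA and 6 of 12 WT libraries. In WT the values were 3.42, 0, 0 and 2.77 in class 2, 3.34, 2.48, 0 and 0 in class 4, and 0, 3.28, 0 and 3.39 in class 8. In TGA they were 1.55, 3.45, 3.35 and 3.51 in class 2, 3.57, 5.26, 0 and 3.45 in class 4, and 0, 4.35, 2.35 and 0 in class 8. Each WT class thus had 2 libraries at 0, TGA class 2 had none, and where Epha2 was seen its level stayed within 1.55 to 5.26. Group means ran from 1.45 ± 1.71 in WT class 4 to 3.07 ± 2.21 in TGA class 4 (SD, n = 4 each), with 1.55 ± 1.81, 1.67 ± 1.93, 1.67 ± 2.10 and 2.97 ± 0.95 in WT class 2, WT class 8, TGA class 8 and TGA class 2 between them, and no neighbours apart beyond their spread. Between class 4 and class 2 its mean difference was 0.00 (SE 1.01, limma adjusted p = 0.999).

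**Figure D3:**
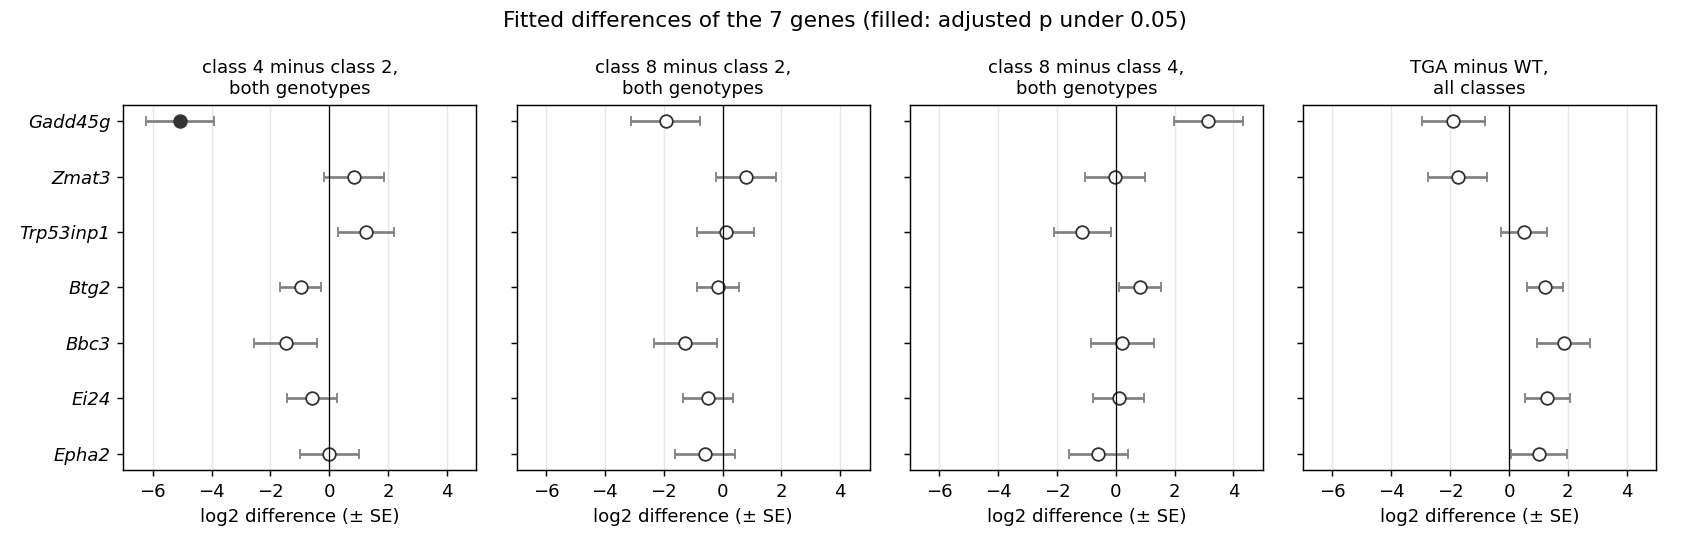
Fitted log2 difference of each of the 7 genes with its SE (horizontal axis) in the class comparisons over both genotypes and in the genotype comparison over all classes; filled points passed an adjusted p of 0.05 (limma). Gadd45g at -5.08 between class 4 and class 2 is the only filled point.

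Over both genotypes 1 of the 7 genes passed between class 4 and class 2, 0 between class 8 and class 2 and 0 between class 8 and class 4. Over all genes 15 (0.308%), 1 (0.0205%) and 0 (0.0%) passed, and 663 (13.6%), 359 (7.36%) and 321 (6.58%) had an unadjusted p under 0.05. At that unadjusted level Gadd45g was the only one of the 7 in both comparisons with class 4, and none was in that of class 8 with class 2. The median difference of the 7 genes was -0.60 between class 4 and class 2, with 4 lower and 3 higher, against -0.23 over all genes tested. Between class 8 and class 2 it was -0.50, with 5 lower and 2 higher (Btg2, at -0.15, turned to 0.09 when libraries were centred), against -0.16 over all genes. These comparisons share the class 2 libraries. In the other comparisons of classes within a genotype, and in the interaction for class 8 against class 4, 0 of the 7 and 0 of 4875 genes passed (0.0%, limma). The counts at an unadjusted p under 0.05 were 237 in WT and 348 in TGA for class 8 against class 2, 223 and 379 for class 8 against class 4, and 228 for that interaction. Gadd45g was 4.05 higher in class 8 than in class 4 in WT (SE 1.66, adjusted p = 0.993). Those libraries did not overlap, with an exact permutation p of 0.0286, which 32 genes (0.656%) reached.

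The genotypes were compared over all classes on means over the 3 classes, 1 mean for each numbered title, which gave 4 values against 4. None of the 7 genes passed (0 of 7), while 24 of 4875 genes did (0.492%, limma), and 433 (8.88%) had an unadjusted p under 0.05. Gadd45g and Zmat3 were lower in TGA and the other 5 higher, with a median of 1.01 against 0.115 over all genes tested.

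For Gadd45g the WT means were 6.95, 6.95, 5.04 and 5.02 and the TGA means 4.91, 4.62, 2.71 and 4.13. All WT values were above all TGA values, a difference of -1.90 (SE 1.06, limma adjusted p = 0.587). Btg2 was the reverse, at 0.65, 0, 0 and 0 in WT and at 0.68, 0.80, 1.41 and 2.58 in TGA. The highest WT mean lay close under the lowest TGA mean, and the difference was 1.21 (SE 0.61, adjusted p = 0.555). That lowest TGA mean, of number 1, came from class 2 alone, at 2.04, which equalled the most frequent value above 0 of its library. Ei24 was also higher in all TGA numbers, at 0.95, 0, 0.61 and 0.15 in WT and 2.90, 0.99, 1.14 and 1.89 in TGA. Its difference was 1.30 (SE 0.77, adjusted p = 0.59). The lowest TGA mean of Ei24, 0.99 in number 2, lay close above the highest WT mean and came from class 8 alone, at 2.96.

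These 3 genes each had an exact two-sided permutation p of 0.0286, the smallest that 4 against 4 allows, and 0.588 after adjustment over all genes tested. Over all genes, 191 (3.92%) were lower and 46 (0.944%) higher in TGA without overlap of the 4 means. Bbc3 differed by 1.85 (SE 0.91, limma adjusted p = 0.542) with overlap, since WT number 1 held 2.84 and TGA number 3 held 0.03. Zmat3 differed by -1.74 (SE 1.0, adjusted p = 0.587), Epha2 by 1.01 (SE 0.94, adjusted p = 0.732) and Trp53inp1 by 0.50 (SE 0.78, adjusted p = 0.849). In this fit the prior counted as 152 degrees of freedom against 6 residual ones, so each SE draws mostly on the spread of other genes. In the fit of all 24 libraries the prior counted as 27.8 against 18 residual ones. The SEs of the other comparisons, that of the Gadd45g call included, thus also draw more on other genes than on the gene itself.

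Markers of hepatocytes moved with the genotype. The mean over the 14 markers was 5.49, 3.86, 2.65 and 2.41 in WT numbers 1 to 4 and 5.51, 6.27, 5.65 and 7.19 in TGA numbers 1 to 4, and 5 of the 14 rose in TGA while 0 fell (limma, adjusted). The mean number of genes above 0 was 10698, 3458, 2484 and 4526 in the WT numbers and 2453, 2765, 5794 and 4017 in the TGA numbers. The part of the marker level in the values of the 7 genes was not tested. That of the number of genes above 0 was looked at only in the fit with it as covariate, in which again 0 of the 7 passed.

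**Figure D4:**
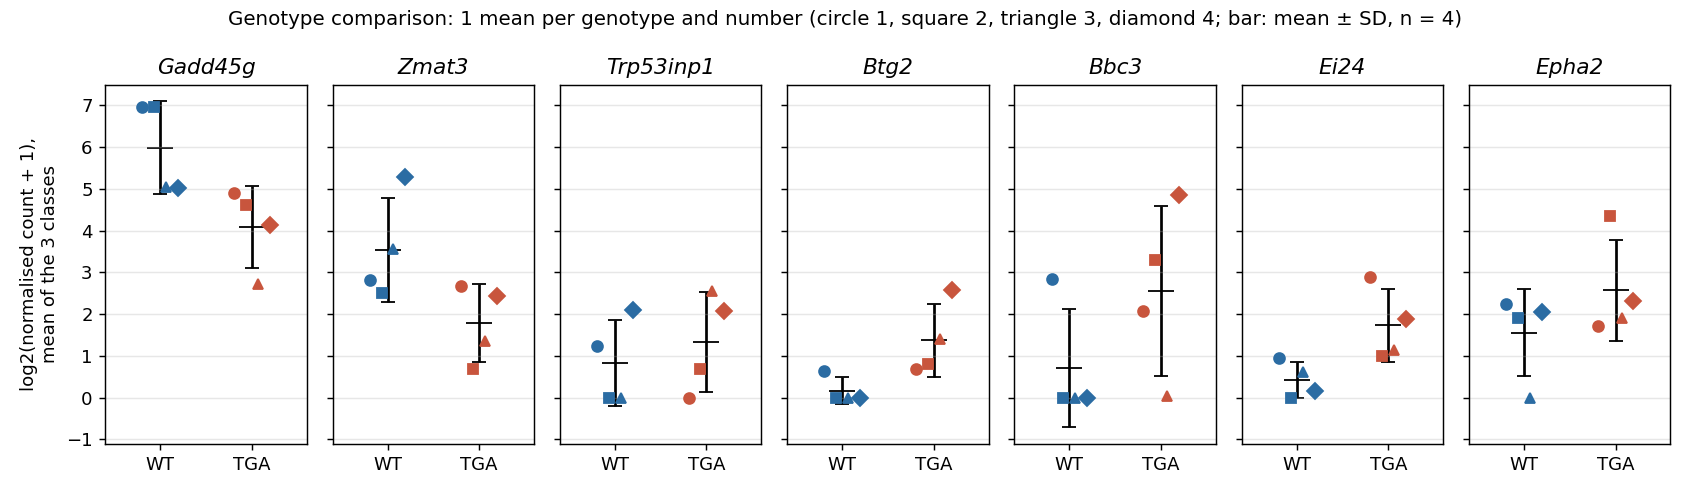
Mean of the 3 classes for each genotype and number, as log2(normalised count + 1), for the 7 genes; points are the 4 numbers of each genotype, the bar is their mean and its whiskers the SD. The genotypes do not overlap for Gadd45g, Btg2 and Ei24, and overlap for the other 4 genes.

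Within single classes, 0 of the 7 genes passed between TGA and WT in class 2, in class 4 or in class 8. Over all genes 5 (0.103%), 1 (0.0205%) and 1 (0.0205%) passed with limma, and 425, 207 and 476 had an unadjusted p under 0.05. The smallest adjusted p among the 7 in class 2 was that of Zmat3, given above. Bbc3 differed there by 3.11 (SE 1.51, adjusted p = 0.561) and Btg2 by 1.98 (SE 0.99, adjusted p = 0.576). In class 8 the differences after that of Gadd45g were 2.58 for Bbc3 (SE 1.51, adjusted p = 0.598) and 1.98 for Btg2 (SE 0.99, adjusted p = 0.513). In class 4 all 7 had an adjusted p of 1.

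The 7 genes did not vary as a set across the 24 libraries. The highest correlation of log2 values between 2 of them was 0.60 for Btg2 and Ei24, followed by 0.54 for Btg2 and Bbc3, and the lowest was -0.49 for Zmat3 and Epha2 (Pearson, across libraries that share a method and differ in how many genes were detected, so a description only). In all 7 libraries where Btg2 was above 0, Ei24 was above 0 too. The same held for Zfp526, which is not among the 7 genes, and the share of tested genes for which it holds was not determined. Btg2, Bbc3 and Ei24 were all above 0 in 6 libraries, 4 of them TGA, and all 3 were at 0 in 11 libraries, 3 of them TGA. The 2 WT libraries with all 3 were WT number 1 classes 2 and 4, those with the most genes above 0.

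Among all genes tested, the values most like those of Gadd45g across the 24 libraries were those of Rpph1, the RNA of ribonuclease P (r = 0.76), and Rbm25, a splicing factor (r = 0.73). For Zmat3 they were Gm40760 (r = 0.75) and Csrnp2 (r = 0.73), for Trp53inp1 Syt1 (r = 0.87) and Man2c1 (r = 0.83), and for Btg2 Zfp526 (r = 0.94) and Pex14 (r = 0.88). For Bbc3 they were Ykt6 (r = 0.87) and Ces1c (r = 0.86), for Ei24 Pcbd1 (r = 0.89) and Gm41330 (r = 0.87), and for Epha2 Mical3 (r = 0.74) and Crk (r = 0.72). Shared zeros enter these values: Btg2 and Zfp526, for example, were both above 0 in 7 libraries and both at 0 in the other 17. None of the 7 genes was among these nearest genes of another.

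Most other genes of the p53 pathway did not reach the filter on low values. The same held for most of the table, where 4875 of 35974 genes reached it, so low detection is not particular to this pathway. Trp53, the gene of p53, was above 0 in 1 of 24 libraries, Mdm2, its ubiquitin ligase, in 5, and Cdkn1a, the cyclin-dependent kinase inhibitor p21, in 4. Among the close relatives of Gadd45g, Gadd45a was above 0 in 7 libraries and Gadd45b in 0. These 5 genes were singled out after their values were seen, and none reached the filter on low values. Of 13 regulators of p53 that were listed with values, 2 were tested, and of the targets 6 of 14 for arrest, 4 of 15 for cell death, 2 of 8 for DNA repair and 2 of 13 for metabolism and stress defence, with members counted in them.

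Gadd45g was the only tested gene of these lists, of the BTG and Tob family (3 of 6 tested), of other growth arrest genes (7 of 18) and of Eph receptors and ephrins (8 of 21) to pass the adjusted threshold in any comparison. Atr and Usp7, a damage-sensing kinase and a deubiquitinase that acts on Mdm2, differed between class 4 and class 2 by 1.18 (SE 0.88) and 0.56 (SE 0.77). Apaf1, the apoptosome scaffold, differed by 1.64 (SE 1.01), Xpc, of nucleotide excision repair, by -2.17 (SE 0.99), and Rev3l, a translesion polymerase, by 1.38 (SE 1.30). Gls2, liver glutaminase, differed by -2.63 (SE 0.89, limma adjusted p = 0.195) and Dram1, of autophagy, by -0.03 (SE 0.64). None passed, and Gls2 had the smallest p.

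Among the growth arrest relatives, Tob1 differed between class 4 and class 2 by -2.57 (SE 1.11, limma adjusted p = 0.309) and Tob2 by 0.94 (SE 1.09), both of the family of Btg2. The forkhead factors Foxo3 and Foxo1 differed by -2.97 (SE 1.22, adjusted p = 0.284) and -1.23 (SE 0.96). Ephb2, a relative of Epha2, differed by 2.16 (SE 1.01, adjusted p = 0.343). None of these 5 passed. Tob1 and Tob2 differed in sign, and Foxo1 and Foxo3 were both lower.

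Immediate early genes, which stress and growth signals switch on without new protein synthesis, were also read. Of 20 listed, 9 were tested, and between class 4 and class 2 their median was -2.02 against -0.23 over all genes tested, with 7 lower, 2 higher and 0 past the adjusted threshold. At an unadjusted p under 0.05, 4 were lower and 1 higher, against 10.5% and 3.14% of all genes. Jun differed by -1.55 (SE 1.26, limma adjusted p = 0.583), while Ier2, above 0 in all 24 libraries, differed by 0.32 (SE 0.58, adjusted p = 0.826). Proliferation genes gave 3 of 26 tested: Ccnd1, cyclin D1, differed by -0.09 (SE 1.34) and Bub1, of the spindle checkpoint, by 1.76 (SE 0.95, adjusted p = 0.415).

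Over all classes, TGA differed from WT by a median of 0.90 for the 4 tested cell death targets, of which Bbc3 had an unadjusted p under 0.05, and by -0.47 for the 6 arrest targets. Most tested genes of both lists are among the 7 genes: Bbc3, Ei24 and Trp53inp1 for cell death, and Gadd45g, Btg2, Zmat3, Trp53inp1 and Epha2 for arrest. Both medians therefore mostly restate the values of the 7 genes. The median was 0.46 for the 9 immediate early genes, 0.59 for the 7 other growth arrest genes, 0.51 for the 3 BTG and Tob genes, 0.47 for the 2 DNA repair targets and 0.43 for the 8 Eph receptors and ephrins. It was -0.51 for the 2 regulators of p53, -0.44 for the 2 targets of metabolism and stress defence and -0.57 for the 3 proliferation genes, beside 0.115 over all genes tested. No gene of these lists passed (0 in each, limma adjusted), and the lists share members with the 7 genes.

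**Figure D5:**
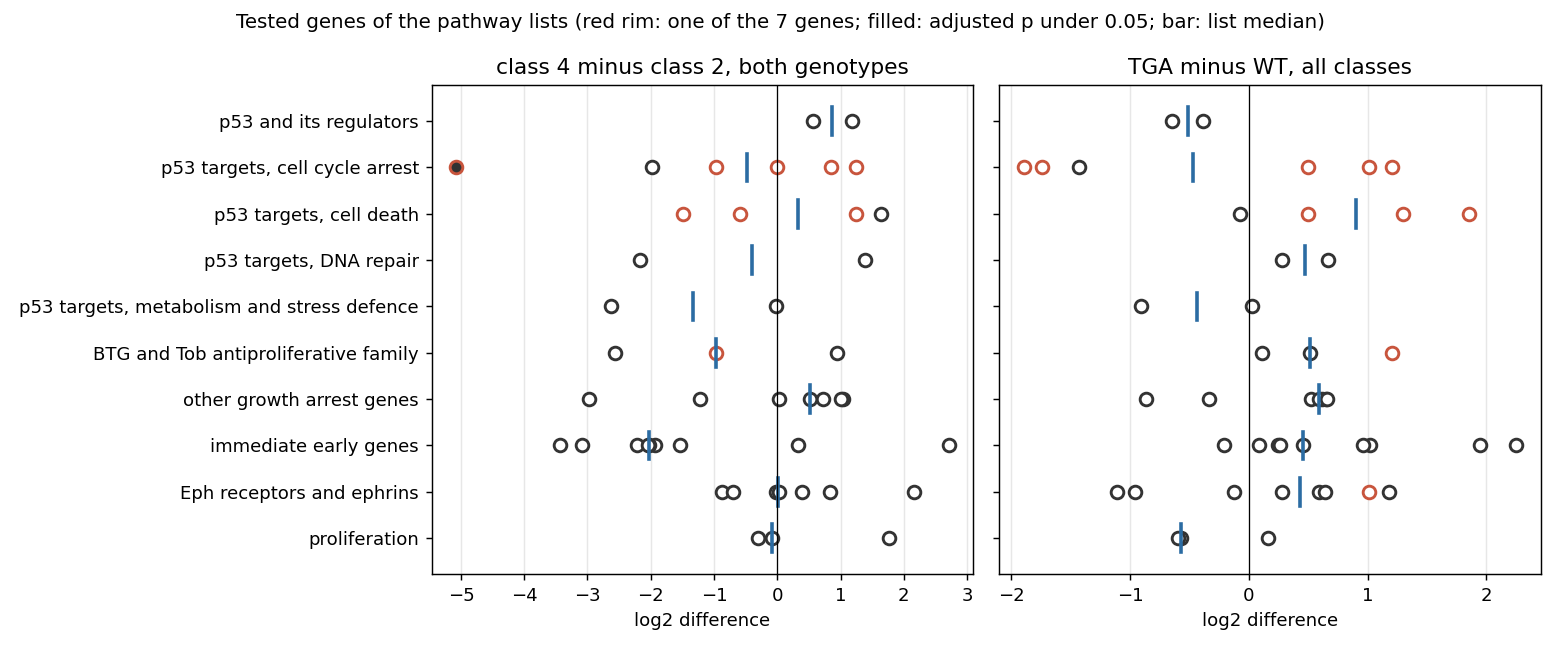
Log2 difference of each tested gene of the pathway lists (horizontal axis, different ranges in the 2 panels) between class 4 and class 2 over both genotypes and between TGA and WT over all classes; blue bars are list medians, red rims mark the 7 genes, and filled points passed an adjusted p of 0.05. Gadd45g, at -5.08 in the arrest list, is the only filled point.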

How the data were processed

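RNA-seq was deposited for 24 mouse liver libraries. Per the labels' protocols, RNA came from an extraction kit meant for fixed, paraffin-embedded material, and NuGen libraries were sequenced as single-end reads of 75 bp. TopHat, edgeR and the genome build mm9 are named in the submitters' processing notes, while counter, annotation and normalization were not given in the sources used here. The authors' deposited values were read as the natural log of a normalised count + 1, quantile-normalised across libraries. This unit rests on the values: 942 genes of the library with most genes above 0 shared (within 1e-09) its lowest common level, that of a single count, and the highest value was the same in 20 of 24 libraries. Dividing by the natural log of 2 gave the log2 values. A quantile-normalised value depends on rank, so 1 read has a high value in a library with few genes.

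Since the values are not counts, limma (version 3.58.1, R version 4.3.3) was used, with a mean-dependent prior. All 24 libraries entered with 1 mean per group, or 8 means for the genotype over all classes. Testing was limited to 4875 genes, those whose deposited value reached 1 in 4 or more libraries. Benjamini-Hochberg adjustment was over all of them, with a threshold of 0.05. Two-sided exact permutation used numpy (version 2.4.6). The fits were tested on simulated data with normal noise and no values set to 0, whereas 54.1% of the values of the genes tested were 0. How the fits behave with that share of zeros was not tested. Samples were grouped by title. Named genes are the 7 genes, any list gene that passed, the 2 tested genes of highest mean per list, and the 2 most correlated with each of the 7. Trp53, Mdm2, Cdkn1a, Gadd45a and Gadd45b fall outside this rule and were named after their values were seen. The members and lists were chosen with earlier results of these data known. Coordinates are printed for promoters only.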

Additional observations from a re-analysis of the deposited data

Results flagged for a closer look

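In 12 of the 42 sets of 4 libraries (7 genes in 6 groups, 36 of them with any spread), 1 library stood apart from the other 3 by Dixon's test at the 95% level. Chance marks about 1 in 20 sets, but in 11 of the 12 the other 3 libraries were listed at 0, so that any value above 0 stands apart. The cause was not tested.

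WT number 1 held several of these values, in the libraries with the most genes above 0. In class 2 these were 1.19 for Trp53inp1, 0.61 for Btg2 and 3.98 for Bbc3, and in class 4 they were 1.33 for Btg2, 4.55 for Bbc3 and 1.14 for Ei24. TGA number 4 class 4 stood apart for 3 genes, with 5.15 for Gadd45g, 6.22 for Trp53inp1 and 4.0 for Bbc3, and that library had 2867 genes above 0. TGA number 1 class 4 stood apart for Ei24 (5.64) and TGA number 3 class 2 for Trp53inp1 (3.84). The exception to the zeros was Epha2 in TGA class 2, where number 1, at 1.55, was below the other 3 libraries.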

How the results depend on the processing

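The number of the 7 genes called stayed at 0 in 14 of 16 comparisons under all 17 alternatives. Between class 4 and class 2 over both genotypes it was 1, Gadd45g, and became 0 with no filter, with a pseudocount of 5, with libraries centred on the genes tested, with the number of genes above 0 as covariate and without the libraries with under 2500 genes above 0, where the adjusted p was 0.336, 0.0511, 0.0666, 0.11 and 0.513. Leaving out 1 number at a time gave 0 to 1. The difference of Gadd45g stayed negative in all 17, from -5.75 to -2.83. In TGA alone the count was 0 and became 1 with the filter raised to 8 libraries, without the libraries with over 7000 genes above 0 and in the fit with a replicate block (adjusted p = 0.0476), and 0 to 1 when numbers were left out. The causes were not tested. With the replicate block (genotype and number) Gadd45g kept its call over both genotypes (adjusted p = 0.0279, 23 genes called against 15). The labels do not say that numbers pair libraries. Deviations of libraries of 1 genotype and number correlated above 0.1 in 2 of 24 pairs (median 0.0325), against 2 of 72 pairs with other numbers (median -0.0142). A library was most like its own number, 1 of 4 candidates, in 21 of 48 cases, a hint of pairing from the data and not the design. The 15 genes called between class 4 and class 2 became 36 with the stricter filter, 5 with the pseudocount of 5, 4 with centring, 3 with the covariate and 0 with no filter. Of 1872 refits, 140 had the other sign, none of them for a difference that had passed. The stricter filter tested 5 of the 7 genes. Depth is unknown, and 48.8% of the values of the 7 genes were listed at 0, which limits what could be detected.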
